A study of Mus musculus with 24 samples.

Results

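The genes described here are solute carriers, membrane proteins of the Slc families that move nutrients, ions and metabolites across the plasma membrane and the membranes of organelles, in dendritic cells of mice given a probiotic bacterium, an anti-PD-1 antibody or both. A gene was taken when its symbol followed the Slc family, letter and member pattern and its normalised count averaged at least 50 over the 24 libraries. Slc2a1, Slc16a3, Slc7a2, Slc7a11, Slc40a1, Slc11a1, Slc11a2, Slc30a1, Slc39a1 and Slc39a14 were left out by name. The amino acid families below therefore lack Slc7a2 and Slc7a11. Other carriers of zinc and iron, such as Slc39a10 and Slc25a37, were kept. Of the 12767 genes listed, 228 matched the pattern, 10 were left out by name and 35 by their mean, which left 183 carriers of 41 families on 20 chromosomes. The carriers nearest to the limit were Slc25a47 at 60.9, Slc24a3 at 64 and Slc22a21 at 73.4 on the inside, and Slc13a3 at 47, Slc14a1 at 40.6 and Slc25a18 at 39.9 on the outside. The rule used no contrast between groups, but its mean runs over all of them. A carrier that is high only under LGG can therefore pass through those libraries. Slc1a2, Slc25a29 and Slc24a3 averaged under 50 in every knockout group, and Slc1a2 also did so in wild type without LGG. In wild type under IgG, every library of Slc25a29 was under 50 as well. Such carriers were in part selected for a rise with LGG, and this limit holds for their rises and promoters given below.

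Solute carriers set which amino acids, sugars, nucleosides, vitamins and ions a cell can take up, and which of them leave the lysosome or enter the mitochondrion. Many work with a partner, such as the heavy chain Slc3a2 that carries the light chains Slc7a5 and Slc7a8 to the surface. In dendritic cells, amino acid carriers feed nutrient sensing at the lysosome, and the endolysosomal peptide carriers Slc15a3 and Slc15a4 are known for moving bacterial peptides into the cytosol.

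The libraries were made from CD11c+ cells purified with magnetic beads from the mesenteric lymph nodes of C57BL/6 mice bearing subcutaneous MC38 tumours, a mouse colon carcinoma line. The mice were labelled female, 6 to 8 weeks old, and wild type or knockout for Myd88, the adaptor of most Toll-like receptors. From a tumour volume near 100 mm3, reached 7 to 10 days after injection, they were treated for 2 to 3 weeks with a control IgG, anti-PD-1, live bacteria labelled LGG by mouth, or anti-PD-1 with LGG. Antibodies were injected into the peritoneum at 200 µg per mouse 2 times a week, and LGG was given as often. For the groups labelled LGG alone, no antibody is named. Mice were pooled and divided at random into the treatments. Each of the 8 groups had 3 libraries. The labels do not say that the libraries of a group came from separate mice, so the p-values measure the spread between these libraries, which may be technical.

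Recovered reads per library ranged from 24531528 to 49272593, and the 183 carriers held 0.818% to 1.12% of the normalised counts. Counted over its whole gene, Myd88 ranged from 1723 to 2232 in wild type and from 697 to 1837 in the knockout (12 libraries each), so the ranges overlapped. The Y-linked gene Ddx3y was at 0 to 4.5 in wild type and at 1241 to 2136 in every knockout library, although all mice were labelled female, so that sex and genotype cannot be told apart. In the knockout, anti-PD-1 libraries 2 and 3 and LGG library 2 stood apart from their groups. The median standard deviation per gene was 0.38 (log2) under anti-PD-1 and 0.273 under LGG there, against 0.0712 to 0.118 in the other 6 groups. Of 12 dendritic cell markers 11 were listed, and their sum was 196357 to 219706 in wild type under IgG and 286142 to 330490 under LGG, where 6 of the 11 rose and 3 fell (median 0.98). In the knockout the sum was 196623 to 210972 under IgG and 219695 to 348824 under LGG, and over all libraries it ran from 176491 to 400756. Zbtb46 averaged 414 ± 16.2 in wild type under IgG (SD, n = 3). The summed level of 7 macrophage markers was 50648 to 52747 in wild type under IgG, 17733 to 18382 under LGG and 53560 to 55585 in the knockout under LGG. Mrc1, one of those 7, averaged 8512 ± 289 in wild type under IgG and 41.7 ± 6.96 under LGG (SD, n = 3). Itgax, which encodes the CD11c used for purification, averaged 23091 ± 359 and 9828 ± 191 in the same groups. The 8 T cell markers summed to 6784 to 7574 in wild type and 1041 to 1136 in the knockout under IgG, and to 8782 to 9964 and 2866 to 3777 under LGG. In bulk libraries, fewer cells of a type and less RNA per cell cannot be told apart, and the part of these marker shifts in the carrier results was not tested.

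Expressed per kilobase of exon, the 10 most abundant carriers in wild-type cells under IgG ranged from 1647 to 11008. Slc25a5, an ADP/ATP carrier of the inner mitochondrial membrane, came first at 11008 normalised counts per kilobase. It was followed by Slc3a2 at 4059, Slc7a5 at 3036, the heme carrier Slc48a1 at 2555, the mitochondrial glutathione carrier Slc25a39 at 2543 and the mitochondrial phosphate carrier Slc25a3 at 2419. Slc1a5, a neutral amino acid carrier known for glutamine, stood at 2319, Slc25a4, another ADP/ATP carrier, at 2225, Slc2a6 at 2062 and the oxoglutarate carrier Slc25a11 at 1647. Under LGG, Slc25a5 fell to 4861 per kilobase and Slc3a2, at 6385, was then the highest of these 10.

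Many carriers changed with LGG alone in wild-type cells, and more fell than rose. Slc1a2, a glutamate carrier best known in glia, rose by 6.32 on the log2 scale, and Slc36a2, a proton-coupled carrier of small amino acids, fell from between 1162 and 1265 normalised counts to 2.23 or fewer. In all, 46 of the 183 carriers rose and 71 fell, while 66 did not pass (limma on log2 of the normalised count plus 1, adjusted p under 0.05). Over all 12749 genes tested, 27.4% rose and 28.2% fell. The rising carriers, at 25.1%, were near that background, and the falling carriers, at 38.8%, were above it. Here and below, the background also holds genes with a mean between 10 and 50, which the carriers do not. The part of expression level in such differences was not tested. The median change of the carriers was -0.11, with quartiles of -0.78 and 0.32, beside -0.00 over all genes. Of the called carriers, 17 rose and 35 fell by more than 2-fold. Of the 7 macrophage markers, 5 fell and 0 rose in the same comparison, with a median of -2.37, and the part of that fall in the carriers was not tested.

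**Figure D1:**
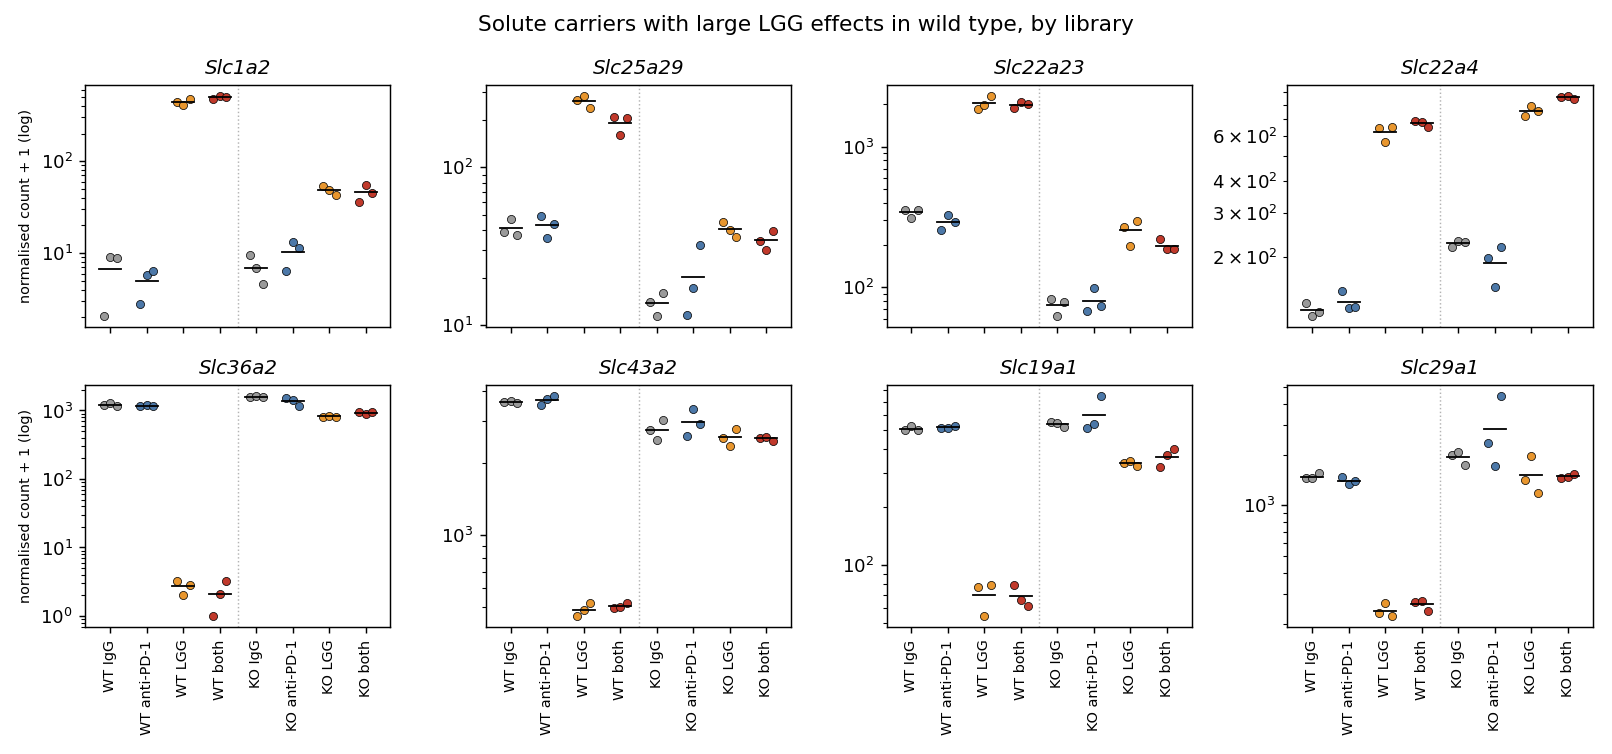
Normalised count plus 1 (log axis) of 8 carriers in each of the 24 libraries; points are libraries, bars are group means, the dotted line parts wild type (WT) from knockout (KO), and "both" is anti-PD-1 with LGG. In wild type, the LGG libraries of Slc1a2, Slc25a29, Slc22a23 and Slc22a4 lie above all libraries without LGG, and those of Slc36a2, Slc43a2, Slc19a1 and Slc29a1 lie below them, whether or not anti-PD-1 was given.

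The carriers were put in 14 groups by whole Slc family and named for the substrates usual in those families. A group can therefore hold members with other substrates or sites: Slc43a3, a nucleobase carrier, is counted with the amino acid carriers, the peroxisomal Slc25a17 with the mitochondrial carriers, and the urate carrier Slc2a9 and the vitamin carrier Slc5a6 with the sugar carriers. Among the 22 carriers of the amino acid families (1, 3, 7, 36, 38 and 43), 4 rose and 13 fell with LGG in wild type, with a median of -0.58, and 1 of the falls was that of Slc43a3 at -0.70. Slc36a2 (ENSMUSG00000020264, chr11:55158470-55185077) was read at 1204, 1265 and 1162 normalised counts under IgG and at 2.23, 1.03 and 1.88 under LGG. Its log2 change was -8.83 ± 0.26 (SE; adjusted p = 4.31e-16), and the summed reads, 3535 against 5, gave a ratio of 795 with a 95% exact interval of 340.2 to 2449 that covers counting error only. The adjoining gene Slc36a1, which exports small amino acids from the lysosome, went from 3163, 3236 and 3057 to 624, 705 and 722. Its change was -2.21 ± 0.19 (SE; adjusted p = 3.98e-09). The related Slc36a4 fell by 1.17, so all 3 members of this family fell. No library of one group reached the range of the other for any of them.

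Slc43a2, a carrier of large neutral amino acids, had 3625, 3645 and 3563 normalised counts under IgG and 458, 485 and 519.6 under LGG, a change of -2.89 ± 0.09 (SE; adjusted p = 8.67e-16). Slc7a8, a light chain that pairs with Slc3a2, fell by 1.49, Slc7a1, a carrier of arginine and lysine, by 0.79, and Slc7a4 by 2.18. Slc1a5 went from 9636, 9597 and 9793 to 4323, 4059 and 4197, a change of -1.21 ± 0.05 (SE; adjusted p = 2.39e-13). The lysosomal arginine sensor Slc38a9 fell by 0.36, with Slc38a6, Slc38a7 and Slc38a10 between -0.70 and -0.57. Not every carrier of large neutral amino acids passed the test. Slc7a5 stood at 10987, 11327 and 11461 under IgG and 11441, 10852 and 11525 under LGG, a difference of 0.00 ± 0.16 (SE; adjusted p = 0.994), and the groups overlapped.

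The 4 amino acid carriers that rose were Slc1a2, Slc7a3, Slc3a2 and Slc1a4. Slc1a2 (ENSMUSG00000005089, chr2:102658659-102790784) had 1.09, 8.13 and 7.91 normalised counts under IgG and 444, 407 and 472 under LGG. The change was 6.32 ± 0.45 (SE; adjusted p = 3.04e-10), and 1296 reads against 17 gave a ratio of 67.8 with a 95% exact interval of 42.2 to 117, for counting error only. Slc7a3, a cationic amino acid carrier, rose from 324, 286 and 331 to 707, 676 and 715, by 1.16 ± 0.12 (SE; adjusted p = 4.97e-08). The heavy chain Slc3a2 rose by 0.65 ± 0.14 (SE; adjusted p = 0.000534) while Slc7a5 and Slc7a8, which are among its partners, did not rise. Slc7a11, another of its partners, was left out by name and did rise, as given with the lists below. Slc1a4 rose by 0.49.

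Of 3 peptide and histidine carriers 2 rose and 0 fell. Slc15a2, which takes up di- and tripeptides, rose from 74, 60.5 and 55.4 to 269.7, 287 and 282, by 2.14 ± 0.18 (SE; adjusted p = 3.57e-09). Slc15a3 had 8862, 8611 and 8809 normalised counts under IgG and 24430, 23621 and 24409 under LGG, a rise of 1.46 ± 0.15 (SE; adjusted p = 4.37e-08). Both groups were narrow and far apart. Slc15a4 was at 870.5 ± 23.8 and 838 ± 47.7 (SD, n = 3) and did not pass, at -0.06 ± 0.13 (SE; adjusted p = 0.735). The exons of Slc15a3 overlap those of Tmem132a on the opposite strand, which also rose, by 0.92 (adjusted p = 0.00143), and whether counting used strand is not given in the sources used here.

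Of the 4 nucleoside carriers, 3 fell with LGG in wild type and 1 rose. Slc29a1, an equilibrative carrier of the plasma membrane, went from 1448, 1443 and 1545 to 231, 262 and 221 normalised counts, a change of -2.63 ± 0.22 (SE; adjusted p = 4.74e-09). Slc29a2 fell by 1.69 and the lysosomal Slc29a3 by 1.29. Slc28a2, the sodium-coupled concentrative carrier, rose slightly, from 533, 563 and 522 to 673, 657 and 717, by 0.34 ± 0.10 (SE; adjusted p = 0.00648). The equilibrative carriers lay below, and the concentrative carrier above, their IgG levels in all 3 LGG libraries.

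Of 8 vitamin and heme carriers, 6 fell and 1 rose. The reduced folate carrier Slc19a1 had 498, 522 and 499 normalised counts under IgG and 75.8, 53.5 and 78 under LGG, a change of -2.88 ± 0.14 (SE; adjusted p = 1.32e-12). The proton-coupled folate carrier Slc46a1 went from 84.9, 106 and 92.6 to 22.3, 33.9 and 35.7, by -1.62 ± 0.20 (SE; adjusted p = 8.03e-07). Slc25a32, which carries folate into mitochondria, is counted with the mitochondrial carriers and fell by 1.22. The thiamine carrier Slc19a2 fell by 0.72, the ascorbate carrier Slc23a2 by 0.97 and the lysosomal Slc46a3 by 1.11. Of the riboflavin carriers, Slc52a3 fell by 0.22 and Slc52a2 did not pass, at -0.34. Slc48a1, which moves heme out of the endolysosome, rose from 7109, 6555 and 7424 to 12231, 11770 and 11103, by 0.74 ± 0.10 (SE; adjusted p = 5.61e-06).

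Of the 5 mono- and dicarboxylate carriers kept by the rule, which left out Slc16a3, 0 rose and 4 fell in wild type. The lactate carrier Slc16a1 fell by 1.10, and Slc16a7, with high affinity for pyruvate, went from 195, 183 and 169 to 12.3, 12.3 and 25.4, by -3.46 ± 0.27 (SE; adjusted p = 1.09e-09). Slc16a10, which carries aromatic amino acids, fell by 0.75 and Slc16a13 by 0.78. The phosphate and Slc17 group had 3 of 4 fall: the lysosomal sialic acid carrier Slc17a5 by 1.33, the vesicular nucleotide carrier Slc17a9 by 1.20 and the phosphate carrier Slc20a2 by 1.15. Slc20a1, the other phosphate carrier, differed by -0.04 ± 0.10 (SE; adjusted p = 0.725).

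Among 7 lipid, bile acid and acetyl-CoA carriers, 2 rose and 4 fell. Slc33a1, which moves acetyl-CoA into the endoplasmic reticulum, rose from 721, 800.4 and 723 to 2959, 2896 and 2729, by 1.94 ± 0.11 (SE; adjusted p = 9.46e-12). The fatty acid transport proteins split. Slc27a3 rose by 1.64 ± 0.10 (SE; adjusted p = 5.97e-11), Slc27a1 fell by 1.28, and Slc27a6 went from 44.6, 60.5 and 45.2 to 3.34, 2.06 and 5.64, by -3.51 ± 0.43 (SE; adjusted p = 7.29e-07). The last of these rests on few reads under LGG, and a pseudocount of 1 understates the change of such genes.

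The 38 carriers of family 25, most of them mitochondrial, had 11 rises and 14 falls, with a median of -0.03. The ADP/ATP carriers diverged. Slc25a5 went from 18650, 17680 and 18026 to 8091, 8226 and 7686, by -1.18 ± 0.08 (SE; adjusted p = 1.78e-10), and Slc25a4 from 5290, 5198 and 5220 to 7975, 7935 and 6908, by 0.54 ± 0.13 (SE; adjusted p = 0.00188). The ATP-magnesium/phosphate carrier Slc25a24 fell by 1.27, the branched-chain amino acid carrier Slc25a44 by 0.89 and the ornithine carrier Slc25a15 by 0.94. Slc25a39 fell by 0.78 (adjusted p = 0.0116), a call that ended at 0.0518 without LGG library 3. Among carriers known for a part in heme synthesis, these rose: the mitochondrial iron importer Slc25a37 by 1.47 ± 0.11 (SE; adjusted p = 1.3e-09) and the glycine carrier Slc25a38 by 1.15 ± 0.10 (SE; adjusted p = 6.03e-09). The second iron importer, Slc25a28, differed by -0.01 ± 0.22 (SE; adjusted p = 0.984). Slc25a20, the carnitine/acylcarnitine carrier, rose by 0.57. Slc25a3 and Slc25a11, both among the 10 highest carriers, did not pass, at -0.04 and 0.10.

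The largest rise of the mitochondrial carriers was that of Slc25a29, which carries basic amino acids. It had 38.1, 46.1 and 36.1 normalised counts under IgG and 266, 282 and 238 under LGG, a change of 2.68 ± 0.26 (SE; adjusted p = 3.12e-08). Its neighbour Slc25a47, 163 bases away, rose by 0.53.

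Choline and organic ion carriers rose more often than they fell, 6 against 1 of 10. Slc22a4, which carries ergothioneine and carnitine, had 131, 116 and 121 normalised counts under IgG and 644, 571 and 655 under LGG, a change of 2.33 ± 0.11 (SE; adjusted p = 3.33e-13). Next to it on chromosome 11, Slc22a21 rose by 0.90 and Slc22a5, the main carnitine carrier, differed by 0.26 ± 0.27 (SE; adjusted p = 0.44). These 3 genes are related copies, and reads that fit more than one of them may have been split or dropped. Slc22a23, whose substrate is not established, rose from 356, 312 and 352 to 1867, 1975 and 2297, by 2.58 ± 0.16 (SE; adjusted p = 3.5e-11). The choline carrier Slc44a1 rose by 0.73. The carrier that fell was the vesicular monoamine carrier Slc18a1, by 1.61, whereas Slc18a2 differed by -0.11 ± 0.14 (SE; adjusted p = 0.54).

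The promoters of the 4 carriers with the largest rises in wild type are printed because the same 4 also rose when LGG was added to anti-PD-1. They come from RefSeq (GRCm38.p6), 250 bases before to 50 after the annotated start, 5′ to 3′ on the strand of the gene, and capitals mark a match to 1 of 6 searched motifs.
Slc1a2, chr2:102706188-102706487 (plus strand): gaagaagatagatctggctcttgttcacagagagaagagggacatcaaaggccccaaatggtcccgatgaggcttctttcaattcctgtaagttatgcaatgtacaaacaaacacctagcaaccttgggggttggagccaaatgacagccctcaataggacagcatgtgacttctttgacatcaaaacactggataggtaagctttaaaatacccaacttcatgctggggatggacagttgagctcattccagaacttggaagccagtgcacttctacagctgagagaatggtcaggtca
Slc25a29, chr12:108835827-108836126 (minus strand): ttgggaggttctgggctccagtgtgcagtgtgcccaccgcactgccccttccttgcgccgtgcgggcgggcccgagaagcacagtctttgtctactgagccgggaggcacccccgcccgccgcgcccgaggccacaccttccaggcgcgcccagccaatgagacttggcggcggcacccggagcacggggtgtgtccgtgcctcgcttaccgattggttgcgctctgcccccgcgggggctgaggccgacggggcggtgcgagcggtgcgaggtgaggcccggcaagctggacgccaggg
Slc22a23, chr13:34345169-34345468 (minus strand): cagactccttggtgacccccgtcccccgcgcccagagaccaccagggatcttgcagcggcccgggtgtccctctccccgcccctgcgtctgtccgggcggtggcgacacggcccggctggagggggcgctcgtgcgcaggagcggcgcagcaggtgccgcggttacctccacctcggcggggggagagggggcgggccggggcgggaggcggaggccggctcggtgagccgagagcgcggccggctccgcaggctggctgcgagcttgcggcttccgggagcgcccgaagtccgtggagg
Slc22a4, chr11:54028055-54028354 (minus strand): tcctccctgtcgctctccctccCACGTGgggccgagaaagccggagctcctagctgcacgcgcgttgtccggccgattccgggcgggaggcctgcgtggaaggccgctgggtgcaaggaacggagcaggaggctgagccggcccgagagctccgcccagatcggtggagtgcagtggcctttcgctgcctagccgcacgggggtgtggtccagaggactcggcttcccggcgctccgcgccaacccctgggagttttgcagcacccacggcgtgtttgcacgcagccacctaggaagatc
For Slc1a2 the RefSeq start lies 47779 bases inside the longest annotated gene, and for the others it lies 7 (Slc25a29), 36 (Slc22a23) and 14 (Slc22a4) bases from the 5′ end of the gene. The capitals in Slc22a4 are an E-box, CACGTG, whose first base is base 23 of the window. The other 3 windows held none of the 6 motifs.

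The searched motifs, on both strands, were AP-1 (TGACTCA), the cAMP response element (TGACGTCA), an amino acid response element (TGATGCAA), the E-box (CACGTG), NF-kB RelA (GGNNTTTCC) and an interferon response direct repeat (GAAANNGAA). A promoter was matched by symbol for 138 of the 183 carriers. The E-box was in 19 of these 138 windows (13.8%) and in 7.15% of 32851 promoters of the same length. It was in 5 of 34 matched carriers that rose with LGG in wild type, in 7 of 49 that fell and in 7 of 55 that did not pass, that is in 14.7%, 14.3% and 12.7%. AP-1 was in 4 of the 138 windows (2.9%; 5.2% of all promoters), NF-kB RelA in 6 (4.35%; 5.82%), the interferon repeat in 8 (5.8%; 8.56%), the cAMP element in 3 (2.17%; 1.79%) and the amino acid element in 3 (2.17%; 0.895%). Median GC content was 63.8% in windows of carriers that rose and 61% in those that fell.

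Of 6 sodium- and chloride-coupled carriers of family 6, 3 rose and 1 fell. The serotonin carrier Slc6a4 rose from 47.9, 68.7 and 74.6 to 168, 197 and 176, by 1.51 ± 0.20 (SE; adjusted p = 2.43e-06). The betaine carrier Slc6a12 rose by 0.54 and the creatine carrier Slc6a8 by 0.34. The taurine carrier Slc6a6 fell from 12960, 13713 and 12714 to 6619, 6580 and 7914, a change of -0.90 ± 0.22 (SE; adjusted p = 0.00193).

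The metal carriers divided evenly, with 6 rises and 6 falls among 20. Slc41a1, which moves magnesium, rose by 1.53 ± 0.17 (SE; adjusted p = 2.44e-07), and its relative Slc41a3 fell by 0.83. Both copper carriers rose, Slc31a1 by 0.57 and Slc31a2 by 0.40. Of the zinc importers of family 39, Slc39a10 went from 359, 400.2 and 365 to 92.5, 69.9 and 117, by -2.02 ± 0.27 (SE; adjusted p = 2.37e-06), and Slc39a6, Slc39a9 and Slc39a11 fell by 0.55, 0.43 and 1.10. Slc39a4 rose by 0.46 and Slc39a8, which also carries manganese, by 0.45. The zinc exporter Slc30a5, of the secretory pathway, fell by 0.57.

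Ion and acid-base exchangers also had 6 rises and 6 falls, among 23. The rises included the bicarbonate carriers Slc4a3, from 55.5, 53.3 and 35 to 211, 248 and 223 (log2 change 2.25 ± 0.20 SE, adjusted p = 7.6e-09), and Slc4a8, from 507, 530.3 and 482 to 1359, 1360 and 1549 (log2 change 1.49 ± 0.15 SE, adjusted p = 7.6e-08). Slc24a3, a potassium-dependent sodium/calcium exchanger, rose by 1.74 ± 0.30 (SE; adjusted p = 5.37e-05). The endosomal sodium/proton exchanger Slc9a9 fell by 1.23 and the anion carrier Slc26a11 by 1.28.

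The families grouped as sugar carriers (2, 5, 37, 45 and 50) had 3 rises and 5 falls among 13. Slc2a6 rose from 6681, 6154 and 7027 to 11237, 11071 and 10192, by 0.71 ± 0.16 (SE; adjusted p = 0.000726), and the myo-inositol carrier Slc5a3 by 0.93 ± 0.14 (SE; adjusted p = 1.27e-05). The falls included members with other substrates. The urate carrier Slc2a9 fell by 1.70, Slc45a4 by 1.79 and Slc5a6, which takes up biotin and pantothenate, by 1.02. The sugar phosphate carriers split, with Slc37a1 up by 0.77 and Slc37a2 down by 0.93. The nucleotide sugar carriers of family 35 were the group with the largest share not passing, 14 of 20, with 1 rise and 5 falls. The GDP-fucose carrier Slc35c1 fell, with a change of -1.02 ± 0.06 (SE; adjusted p = 2.51e-11). Slc35c2 fell by 1.30 and Slc35f6 by 0.90. The CMP-sialic acid carrier Slc35a1 and the UDP-galactose carrier Slc35a2 differed by -0.12 and 0.21 and did not pass.

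**Figure D2:**
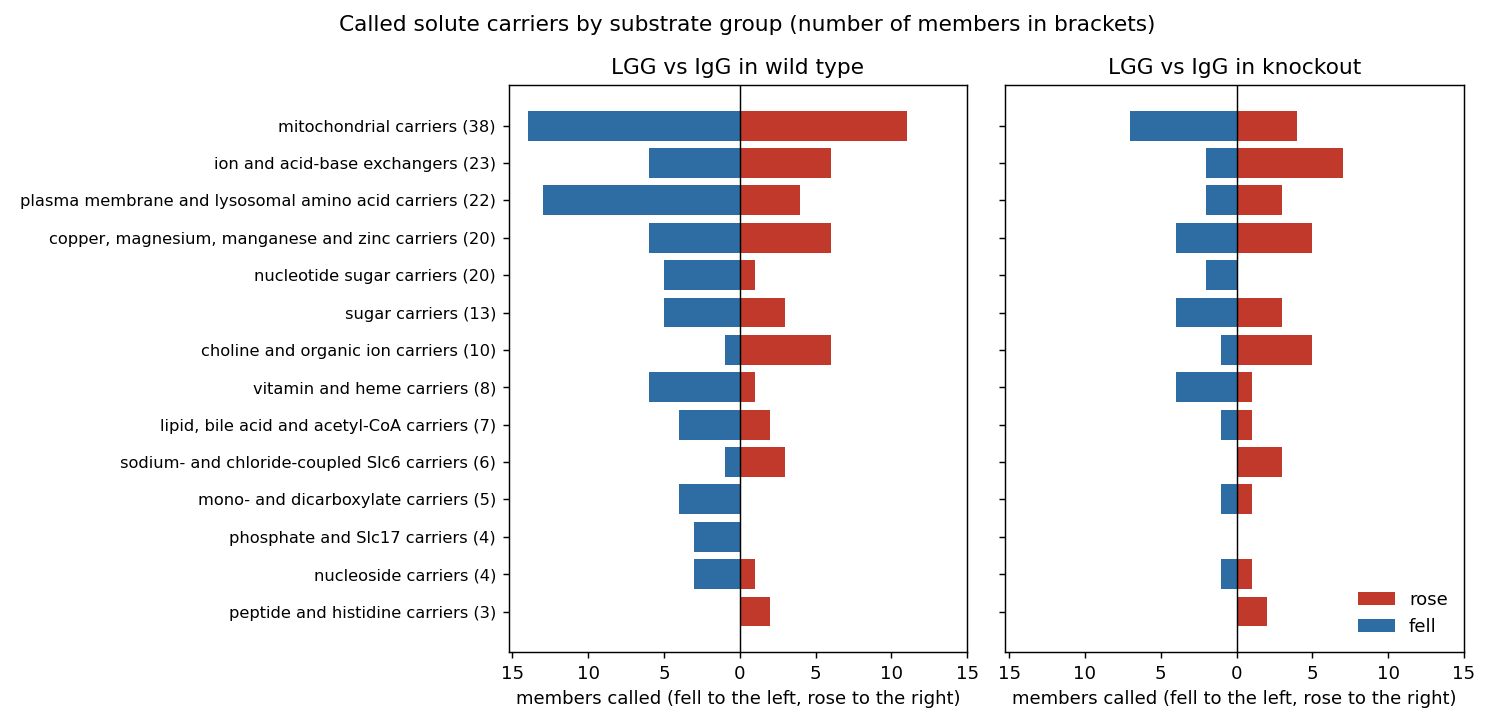
Number of carriers called with LGG against IgG in each of the 14 substrate groups (rows, with the number of members), in wild type (left) and knockout (right); red bars count rises and blue bars count falls at an adjusted p under 0.05. In wild type the 22 amino acid carriers have 13 falls and 4 rises, and in the knockout 2 falls and 3 rises.

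LGG added to anti-PD-1 also left more carriers lower than higher in wild type. Here 51 carriers rose and 74 fell, against 27.7% and 29.1% of all genes, which makes 27.9% and 40.4% of the carriers. The median was -0.16 beside 0.01 over all genes. This comparison shares no library with LGG against IgG. Of the 46 carriers that rose with LGG alone, 43 (93.5%) also rose here, 84.3% of the 51, and of the 71 that fell, 67 (94.4%) also fell, 90.5% of the 74. Slc36a2 was at 1172, 1184 and 1157 normalised counts under anti-PD-1 and at 0, 1.12 and 2.19 with both agents. The summed reads, 4084 against 3, gave a ratio of 1160 with a 95% exact interval of 396.5 to 5625. Slc1a2 was at 1.79, 4.82 and 5.33 and 469.5, 512 and 498, and Slc43a2 at 3497, 3728 and 3820 and 496, 498 and 519. In each of these 3 genes the libraries with and without LGG did not overlap. Of the macrophage markers 5 of 7 fell here too and 1 rose. The amino acid carriers again had 4 rises and 13 falls of 22. Slc28a2, at 0.34 with LGG alone, rose by 1.09 ± 0.10 (SE; adjusted p = 9.74e-09) here. Slc46a1, at -1.62 with LGG alone, did not pass here, at -0.40 ± 0.20 (SE; adjusted p = 0.0951).

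In the Myd88 knockout, LGG given alone was followed by 36 rises and 29 falls, 19.7% and 15.8% of the carriers, close to the 18.1% and 14.2% of all genes. The median change was -0.04, and of the called carriers 14 rose by more than 2-fold and 0 fell by that much. Slc36a2 was at 1568, 1613 and 1573 under IgG and 810.3, 833 and 806 under LGG, a fall of 0.96 ± 0.26 (SE; adjusted p = 0.00709). Slc1a2 rose from 8.47, 5.84 and 3.6 to 52.2, 47.9 and 42.2, by 2.85 ± 0.45 (SE; adjusted p = 4.9e-05). Slc22a4 rose from 218, 231 and 228 to 722, 788 and 755, by 1.74 ± 0.11 (SE; adjusted p = 2.29e-10). Both rises were clear of the IgG libraries. Slc22a23, Slc25a29, Slc4a3, Slc4a8 and Slc24a3 rose by 1.75, 1.55, 1.56, 1.90 and 1.98. Slc18a2, which did not pass in wild type, rose from 93.9, 133 and 111 to 310.3, 310.5 and 319.5, by 1.48 ± 0.14 (SE; adjusted p = 1.34e-07). Slc48a1 rose by 1.11, Slc2a6 by 1.28, Slc39a4 by 1.44 and Slc15a3 by 0.92. Hdac7, which overlaps Slc48a1 on the opposite strand, rose by 1.19 in the knockout (adjusted p = 3.15e-07). Of the T cell markers 8 of 8 rose there too, with a median of 1.72, and their part was not tested.

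Among the falls in the knockout were Slc2a9 at -0.88, Slc25a15 at -0.87, Slc45a4 at -0.76, Slc19a2 at -0.74, Slc18a1 at -0.69 and Slc19a1 at -0.68. The call for Slc29a2, at -0.80 ± 0.27 (SE; adjusted p = 0.026), was lost without IgG library 1 or 2 or LGG library 3, at adjusted p = 0.102, 0.073 and 0.151. Of the 71 carriers that fell in wild type, 23 (32.4%) fell in the knockout, 79.3% of its 29, and of the 46 that rose, 27 (58.7%) rose, 75% of its 36. Without the 3 libraries that stood apart, 103 carriers passed in place of 65, 56 up and 47 down, while 61.4% of all genes passed. With LGG added to anti-PD-1, 43 carriers rose and 29 fell in the knockout, against 19.7% and 17% of all genes. Without the 3 libraries the anti-PD-1 group kept library 1 alone, so no count is given for this comparison. Counts given below from fits with that group carry the same limit. The median change of the carriers was then 0.02. When only the groups compared were fitted 20 passed in place of 72, against 9.77% of all genes. Slc39a2, a zinc importer, was at 1552, 1312 and 1341 under anti-PD-1 and 3656, 3594 and 3690 with both, a rise of 1.38 ± 0.08 (SE; adjusted p = 6.92e-11). Slc39a2 shares exon sequence with Mettl17 on the same strand. Slc22a4 rose by 2.19 ± 0.11 (SE; adjusted p = 8.55e-12) and Slc6a8 by 1.18. Of the carriers called in the first knockout comparison, 26 of 36 rises (72.2%, and 60.5% of the 43) and 21 of 29 falls (72.4% of each) recurred.

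The difference between genotypes was tested as an interaction. Here and below these differences are signed, so a fall that was smaller in the knockout counts as a higher effect. Slc36a2, at -8.83 in wild type and -0.96 in the knockout, is such a case. The LGG effect was higher in the knockout than in wild type for 61 carriers and lower for 25, against 19.5% and 15.4% of all genes, that is 33.3% and 13.7% of the carriers. The median difference was 0.21 for the carriers and 0.03 for all genes. Slc36a2 had the largest difference, 7.87 ± 0.36 (SE; adjusted p = 2.6e-12), followed among higher effects by Slc16a7 at 2.92, Slc43a2 at 2.79 and Slc27a6 at 2.45. Slc43a2 was at 2755, 2495 and 3026 under IgG and 2554, 2371 and 2797 under LGG in the knockout, a difference of -0.10 ± 0.09 (SE; adjusted p = 0.447), and those groups overlapped. The 11 amino acid carriers with a higher effect in the knockout were joined by 3 of 4 nucleoside carriers, 4 of 5 mono- and dicarboxylate carriers and 3 of 4 phosphate and Slc17 carriers. Lower effects in the knockout were led by Slc1a2 at -3.46 ± 0.63 (SE; adjusted p = 0.00023), Slc33a1 at -2.03 ± 0.15 (SE; adjusted p = 3.6e-09) and Slc15a2 at -1.53 ± 0.25 (SE; adjusted p = 8.27e-05). Slc33a1 was at 811, 826 and 764 under IgG and 786, 736 and 723 under LGG in the knockout, and did not pass there. Of the 7 macrophage markers 5 also had a higher effect in the knockout and 0 a lower one, with a median of 1.86, and their part was not tested.

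For LGG added to anti-PD-1, the effect was higher in the knockout for 68 carriers and lower for 27, against 20.5% and 17.2% of all genes. Of the 7 macrophage markers 5 were higher here and 0 lower (median 2.03), and of the 11 dendritic cell markers 3 were higher and 6 lower (median -1.49), and their part was not tested. Without the 3 libraries that stood apart, the interaction was called for 131 carriers with LGG alone and for 116 with LGG added to anti-PD-1, where 62.8% and 56.8% of all genes were called. That fit leaves library 1 alone in the knockout anti-PD-1 group. The 116 calls therefore rest on spread taken from other groups, and no conclusion is drawn from them. Slc6a9, a glycine carrier, passed the interaction with all libraries at 2.21 ± 0.84 (SE; adjusted p = 0.0461), but its knockout libraries under anti-PD-1 were 169, 517 and 32.2, and DESeq2 and edgeR did not call it. Across the 183 carriers, the change in the knockout followed that in wild type with a Pearson r of 0.676 for LGG alone and 0.532 for LGG added to anti-PD-1, over carriers that share libraries and are not independent. The slopes through the origin were 0.29 and 0.22, beside 0.33 and 0.27 over all 12749 genes. The change in the knockout was smaller in size than that in wild type for 71.6% of the carriers and 69.3% of all genes with LGG alone, and for 74.3% and 65.1% with LGG added to anti-PD-1.

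**Figure D3:**
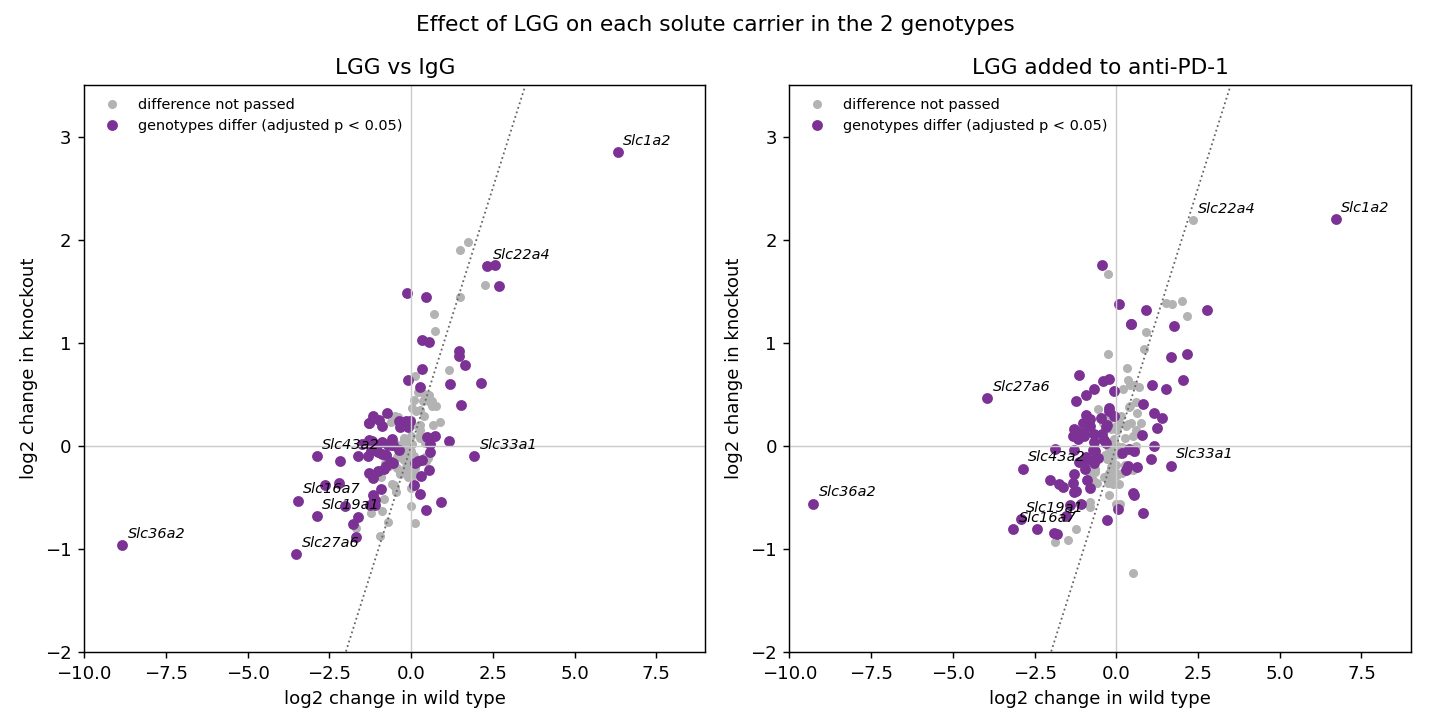
Log2 change of each of the 183 carriers in wild type (x axis) and in the knockout (y axis, on another scale), for LGG against IgG (left) and LGG added to anti-PD-1 (right); the dotted line marks equal change, and purple points have an adjusted p under 0.05 for the difference between genotypes. Slc36a2 lies far to the left, at -8.83 in wild type and -0.96 in the knockout for LGG alone, and Slc22a4 lies at 2.33 and 1.74.

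A few carriers moved in opposite directions in the 2 genotypes with LGG alone. Slc39a8 rose in wild type, from 157, 154 and 154 to 212, 214 and 210.5, and fell in the knockout, from 156, 162 and 155 to 94.4, 98.2 and 114, with a difference of -1.07 ± 0.16 (SE; adjusted p = 2.86e-05). Slc5a3 rose from 310.2, 339.7 and 343 to 532, 609.7 and 768 in wild type and fell from 299.9, 352 and 342 to 229, 183 and 280.3 in the knockout, a difference of -1.46 ± 0.20 (SE; adjusted p = 8.82e-06). For both genes the IgG and LGG libraries did not overlap in either genotype. The exons of Slc5a3 overlap those of Mrps6 on the same strand, and Mrps6 rose by 1.26 in wild type (adjusted p = 0.00934) and was at -0.53 in the knockout (adjusted p = 0.337), so the reads of the pair may not be separable. Slc16a10 and Slc8b1, the mitochondrial sodium/calcium exchanger, fell in wild type by 0.75 and 0.38 and rose in the knockout by 0.32 and 0.24. The rise of Slc16a10 was lost without IgG library 1 or 3 or LGG library 1 or 3, with adjusted p up to 0.0833. The fall of Slc5a3 in the knockout was lost, at adjusted p = 0.0814, when only the groups compared were fitted. When LGG was added to anti-PD-1, Slc12a7, Slc39a8 and Slc5a3 rose in wild type and fell in the knockout. Slc1a5, Slc26a11, Slc35f5, Slc35f6, Slc36a4, Slc38a10, Slc38a9, Slc39a11 and Slc8b1 fell in wild type and rose in the knockout. The knockout rise of Slc1a5 was 0.14. It was lost without the 3 libraries that stood apart, which leaves library 1 alone under anti-PD-1 in the knockout. The knockout rise of Slc36a4 was 0.69 and was lost without any of 5 single libraries.

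**Figure D4:**
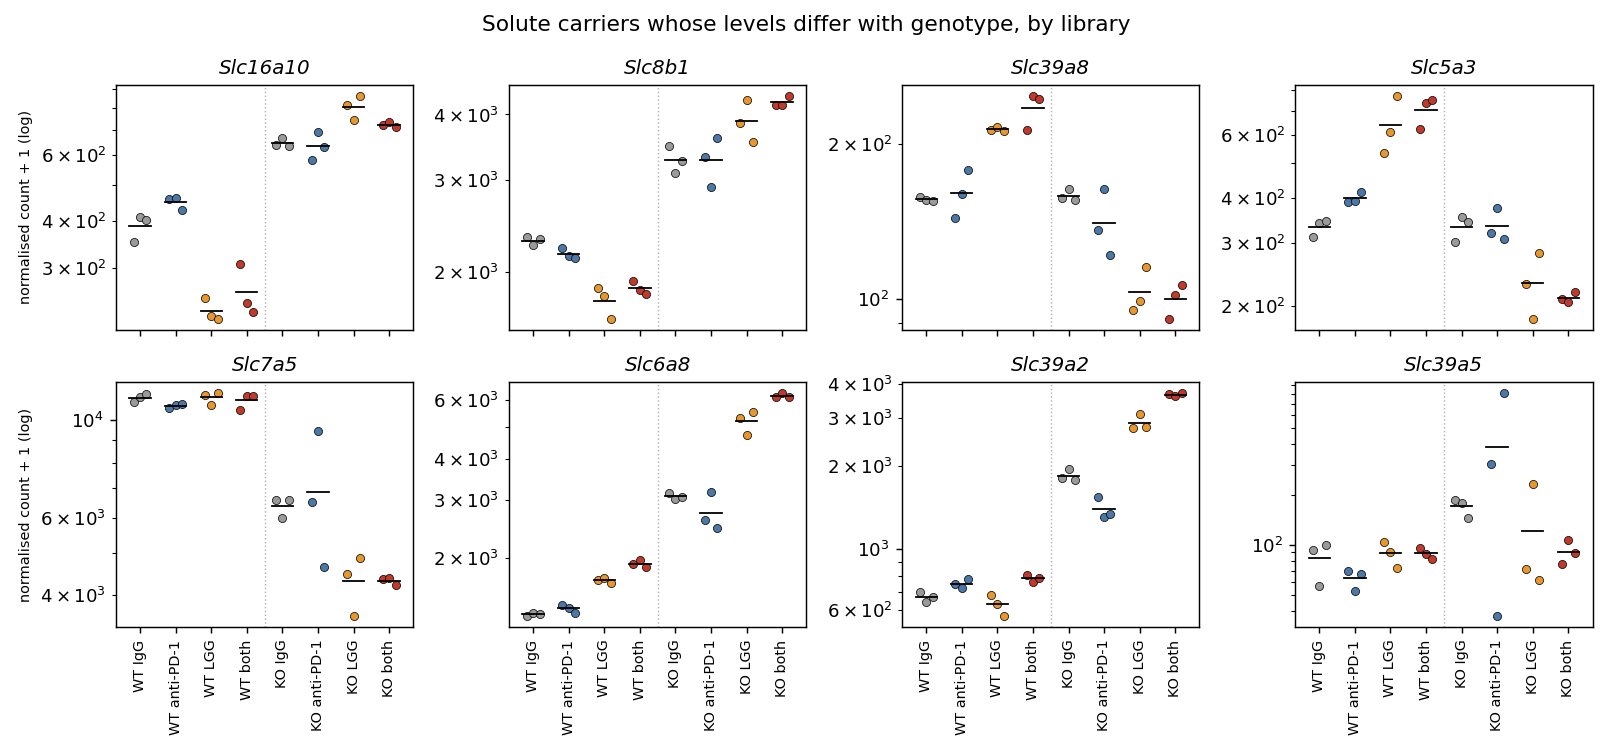
Normalised count plus 1 (log axis) of 8 carriers by library, with points for libraries and bars for group means, wild type (WT) left and knockout (KO) right of the dotted line. Slc39a8 and Slc5a3 rise with LGG in wild type and fall in the knockout, Slc7a5 lies lower in the knockout under each treatment, and the knockout anti-PD-1 libraries of Slc39a5 run from 36.5 to 808.

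Anti-PD-1 alone gave few calls. In wild type 0 carriers rose and 0 fell, against 0.00784% and 0.0235% of all genes by limma. At an unadjusted limma p under 0.05 there were 15 carriers, beside 1028 of all 12749 genes. DESeq2 called 1 carrier (1.69% of all genes) and edgeR 0 (0.0706%). When only the groups compared were fitted 23 carriers passed, against 13.8% of all genes, and without the 3 libraries of the knockout 13 passed, against 8.46%. In the knockout 0 rose and 2 fell, against 1.09% and 0.706% of all genes. These were Slc39a2, at 1820, 1953 and 1778 under IgG and 1552, 1312 and 1341 under anti-PD-1, by -0.40 ± 0.08 (SE; adjusted p = 0.0111), and the peroxisomal carrier Slc25a17, at 1084, 1136 and 1048 and 957, 803 and 845, by -0.33 ± 0.07 (SE; adjusted p = 0.0288). The groups did not overlap for either gene, and neither passed when only the groups compared were fitted. Without the 3 libraries 12 carriers passed, against 8.94% of all genes, and without anti-PD-1 library 2 alone 63 passed, against 35.9%. The fit without the 3 libraries leaves library 1 alone under anti-PD-1 in the knockout. Its 12 calls there rest on spread taken from other groups, and no conclusion is drawn from them. Several carriers varied between the knockout anti-PD-1 libraries far more than between groups. Slc39a5 was read at 304, 36.5 and 808 there, Slc25a30 at 78.7, 446 and 14.9 and Slc8a1 at 28.7, 196 and 17.2. Library 3 was highest for Slc39a5 and lowest for Slc25a30 and Slc8a1, and library 2 was the reverse.

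Anti-PD-1 with LGG against LGG alone gave 0 carriers in either direction in both genotypes by limma. The background was 0.0392% up and 0.0235% down in wild type, and 0.0941% up and 0.18% down in the knockout. At an unadjusted limma p under 0.05 there were 16 carriers in each genotype, beside 827 of all 12749 genes in wild type and 879 in the knockout. DESeq2 called 2 carriers in wild type and 6 in the knockout, against 0.635% and 1.58% of all genes. For edgeR the counts were 1 and 0, against 0.0863% and 0.431%. Without the 3 libraries that stood apart 22 carriers passed in wild type and 26 in the knockout, where 8.59% and 11.3% of all genes passed.

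Under IgG, 48 carriers were higher and 37 lower in the knockout than in wild type, 26.2% and 20.2% of the carriers, against 19.1% and 20% of all genes. Higher in the knockout were Slc27a6, at 44.6, 60.5 and 45.2 in wild type and 324, 299 and 359 in the knockout (log2 change 2.69 ± 0.43 SE, adjusted p = 4.48e-05), Slc39a2 (1.47), Slc6a8 (1.19) and Slc43a3 (0.95), a nucleobase carrier. Slc4a8 was lower in the knockout, at 507, 530.3 and 482 and 80.8, 59.6 and 85 (log2 change -2.75 ± 0.15 SE, adjusted p = 2.79e-11). The same held for Slc28a2, at 533, 563 and 522 and 106, 102 and 114 (log2 change -2.32 ± 0.10 SE, adjusted p = 5.83e-13), and for Slc7a3, at 324, 286 and 331 and 73, 53.8 and 71.3 (log2 change -2.24 ± 0.12 SE, adjusted p = 8.92e-12). Slc18a2 and Slc22a23 were lower by 2.14 and 2.20. Slc7a5 was lower in the knockout under IgG by 0.82. Ion and acid-base exchangers had 10 of 23 lower and 3 higher, and nucleotide sugar carriers 7 of 20 higher and 1 lower. Of the T cell markers 7 of 8 were lower in the knockout as well, with a median of -3.31, and 4 of 4 listed natural killer markers, with a median of -3.47. In all 12 knockout libraries the Y-linked genes were also higher. The part of either in these carriers was not tested.

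Related genes outside the naming pattern were read from 5 lists, whose counts stand beside the 27.4% of all genes that rose and the 28.2% that fell with LGG in wild type, and the 18.1% and 14.2% in the knockout. Of 20 amino acid response genes, 8 rose and 4 fell with LGG in wild type (median 0.31), and 2 rose and 7 fell in the knockout. Cth, an enzyme of cysteine synthesis, rose by 1.37 ± 0.15 (SE; adjusted p = 2.02e-07) in wild type, and Phgdh and Psat1 of serine synthesis fell by 1.18 and 0.66. The transcription factor Atf4 rose by 0.34 ± 0.10 (SE; adjusted p = 0.00527) in wild type and differed by -0.01 ± 0.10 (SE; adjusted p = 0.939) in the knockout. Of 23 genes of lysosomal nutrient sensing, 3 rose and 7 fell in wild type. Tfeb, a transcription factor of lysosomal genes, fell by 2.27 and the arginine sensor Castor1 rose by 2.23. In the knockout 5 rose and 2 fell. Of 15 other inner mitochondrial membrane transport genes, 0 rose and 8 fell in wild type and 1 rose and 5 fell in the knockout, with Ucp2 at -1.47 ± 0.16 (SE; adjusted p = 1.99e-07) in wild type.

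Of 19 tested transporter partners and other carriers, 6 rose and 8 fell in wild type and 6 rose and 2 fell in the knockout. Emb, a partner of the monocarboxylate carriers, fell by 0.97, and Ostm1, a lysosomal chloride carrier subunit, by 0.44. The organic anion carriers Slco3a1 and Slco2b1 moved apart, at 2.47 and -4.88. Of the 10 carriers left out by name, 7 rose and 1 fell in wild type (median 0.70) and 8 rose and 0 fell in the knockout (median 0.96). Slc7a11, the cystine/glutamate exchanger, rose by 2.64 in wild type and 2.67 in the knockout.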

How the data were processed

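RNA of CD11c+ cells from 24 libraries was sequenced in bulk. The deposited table holds a signal per gene, gene counts that the authors divided by size factors. STAR 2.4.0, HTSeq 0.6.1, DESeq2 and the build mm10 are named in the submitters' processing notes. Whole reads were recovered from 100% of the values within a tolerance of 0.001, which gave the depth of each library and the counts for the count tests. The table lists 12767 genes with a mean of at least 9.57, and genes with a mean of at least 10 (12749) were tested. Groups were compared with limma 3.58.1 (R 4.3.3) on log2 of the deposited value plus a pseudocount of 1, with 1 mean per group over all 24 libraries, a trended and robust variance, and Benjamini-Hochberg adjustment over all genes. A log2 change on this scale understates the change of low genes, and 0.05 was the limit on adjusted p. edgeR 4.0.16 and DESeq2 1.42.0 on recovered reads, TMM scaling, a pseudocount of 8, no filter, only the groups compared, a replicate block, and leaving out libraries were alternatives. The test was tried on simulated data. Single values of some exchangers are not reported here. Gene positions came from GENCODE on GRCm38 and promoters from RefSeq. Exons of 55 carriers overlap another gene.

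For each comparison, up to 8 called carriers with the largest rise and fall a group mean of at least 20 and no overlap of libraries, and up to 4 per substrate group by p, were named, with the 10 highest per kilobase and up to 4 genes per list. Others named were chosen after their values were seen. The members and lists were chosen with earlier results of these data known.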

Additional observations from a re-analysis of the deposited data

Results flagged for a closer look

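The carriers below had an effect of LGG that differed between genotypes by the interaction test (limma, adjusted p under 0.05); values are log2 differences, knockout minus wild type. With LGG alone, the effect was higher in the knockout for Slc36a2 7.87, Slc16a7 2.92, Slc43a2 2.79, Slc27a6 2.45, Slc29a1 2.26, Slc19a1 2.20, Slc7a4 2.03 and Slc36a1 1.85. It was lower for Slc1a2 -3.46, Slc33a1 -2.03, Slc15a2 -1.53, Slc5a3 -1.46, Slc41a1 -1.14, Slc25a29 -1.13, Slc25a38 -1.10 and Slc39a8 -1.07. With LGG added to anti-PD-1, the effect was higher in the knockout for Slc36a2 8.72, Slc27a6 4.41, Slc43a2 2.65, Slc16a7 2.35, Slc19a1 2.21, Slc6a9 2.21, Slc36a1 1.86 and Slc36a4 1.83. It was lower for Slc1a2 -4.52, Slc33a1 -1.86, Slc5a3 -1.47, Slc22a23 -1.46, Slc15a2 -1.42, Slc25a29 -1.26, Slc22a15 -1.19 and Slc25a38 -1.15. The call for Slc6a9 was lost with DESeq2, with edgeR and with the replicate block, among others, and that for Slc25a29 with LGG alone was lost without knockout IgG library 3. With LGG added to anti-PD-1, the call for Slc25a29 was lost without the 3 libraries that stood apart. That fit leaves library 1 alone in the knockout anti-PD-1 group. Sex and genotype cannot be told apart in any of these differences.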

How the results depend on the processing

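Carriers named by rule were checked in the 6 comparisons of LGG effects and their interactions, and none reversed in an alternative run. Other named carriers, the comparisons of anti-PD-1 and that of genotype under IgG were not checked for this. Where a share stands in brackets after a count of carriers, it is that of all genes called under the same setting. It was not computed for the replicate block or for most fits without 1 library, so those counts cannot be set against all genes. Without the 3 libraries that stand apart, 103 carriers (61.4% of all genes) were called for LGG in the knockout, 131 (62.8%) for the LGG interaction, 13 (8.46%) and 12 (8.94%) for anti-PD-1 in wild type and knockout, and 22 (8.59%) and 26 (11.3%) for the combination against LGG in wild type and knockout. With only the groups compared, 20 (9.77%) were called for LGG added to anti-PD-1 in the knockout, 23 (13.8%) and 0 (0%) for anti-PD-1 in wild type and knockout, 3 (1.14%) for the combination against LGG in wild type and 129 (62.2%) for knockout against wild type. DESeq2 called 1 (1.69%) and 4 (4.72%) for anti-PD-1 in wild type and knockout, and 2 (0.635%) and 6 (1.58%) for the combination against LGG. For the combination against LGG in wild type, TMM scaling (0.126%), edgeR (0.0863%) and a pseudocount of 8 (0.0706%) each called 1. TMM scaling moved the median of all genes by at most 0.0217. Leaving out each library of the groups compared in turn gave 109 to 114 calls for LGG in wild type, 58 to 71 in the knockout and 71 to 91 for the interaction. For LGG added to anti-PD-1 it gave 114 to 119 and 52 to 100 in wild type and knockout, and 81 to 120 for that interaction. The 100 and 120 came from the fit without knockout anti-PD-1 library 2, where 59.2% and 57% of all genes were called. The ranges were 0 to 0 and 0 to 63 for anti-PD-1, 0 to 0 and 0 to 1 for the combination against LGG, and 72 to 81 for knockout against wild type. Libraries of other groups share in the pooled spread but are not in these ranges. Without knockout anti-PD-1 library 2, such fits called 124 (62.1%) for LGG in wild type, 74 (39.5%) in the knockout and 102 (43%) for the interaction. They called 131 (63%) for LGG added to anti-PD-1 in wild type and 98 (47.9%) for knockout against wild type. The combination against LGG had 1 (0.259%) in wild type and 3 (0.745%) in the knockout. The cause was not tested. Where a group kept 1 or 2 libraries, the pooled spread assumes that they vary like the other groups. Without the 3 libraries the knockout anti-PD-1 group kept library 1 alone, so no conclusion is drawn from its 12 calls.

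Samples with the same replicate number did not deviate together: the correlation ranged from -0.832 to 0.56 over 84 pairs (median 0.023), and from -0.56 to 0.772 over 168 pairs with different numbers. With a replicate block, 117, 64 and 84 carriers were called for LGG in wild type, in the knockout and for the interaction, 126, 68 and 91 for LGG added to anti-PD-1, 0, 2, 0 and 0 for the comparisons of anti-PD-1, and 85 for knockout against wild type.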

Other observations

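Of the 183 carriers, 12 pairs lie within 100000 bases of each other, and their log2 changes with LGG in wild type are given here as values. On chromosome 11, Slc36a2 and Slc36a1, 19273 bases apart, were at -8.83 and -2.21, and Slc22a5, Slc22a21 and Slc22a4, which form 3 of the pairs, were at 0.26, 0.90 and 2.33. Slc25a29 and Slc25a47 on chromosome 12 were at 2.68 and 0.53. On chromosome 15, Slc52a2 and Slc39a4 were at -0.34 and 0.46, and Slc38a1 and Slc38a2 at -0.32 and -0.02. Slc25a43 and Slc25a5, 18449 bases apart on the X chromosome, were at -1.08 and -1.18, and Slc25a15 and Slc20a2, 78191 bases apart on chromosome 8, at -0.94 and -1.15. Slc31a2 and Slc31a1 on chromosome 4 were at 0.40 and 0.57. Slc35b2 and Slc29a1, 17529 bases apart on chromosome 17, were at 0.10 and -2.63, and Slc6a13 and Slc6a12, 5343 bases apart on chromosome 6, at -0.50 and 0.54.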
